A study of Culex quinquefasciatus and Culex pipiens molestus with 2 samples.

Results

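Trypsins and chymotrypsins were followed in polyadenylated RNA from females of 2 taxa of house mosquito. They were chosen by name, with earlier results of these data known. A transcript model was a member if its product description held "trypsin" and was not that of an inhibitor, which took 96 of the 16198 models listed in either library. Of these, 59 were trypsins and 37 were chymotrypsins, the chymotrypsinogens included. The samples were females of a laboratory strain of Culex pipiens molestus and females of a laboratory strain of Culex pipiens quinquefasciatus. No genetic change or treatment is named for either. RNA of 30 females was pooled into 1 library per taxon, so an effect of the taxon and one of its library cannot be told apart. Without replicates there is no test of any difference below.

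Trypsins are endopeptidases that cut proteins after lysine or arginine, and chymotrypsins cut mainly after large aromatic residues. Both are made as inactive precursors and are the main protein-digesting enzymes in the midgut of blood-feeding mosquitoes. In Aedes aegypti and Anopheles gambiae some trypsins are present before a blood meal and others are made only after one. The descriptions borrow names from other animals. Trypsin 5G1 and trypsin 3A1 are names of midgut trypsins of Aedes aegypti, trypsins eta, epsilon, zeta and beta are names from a gene cluster of Drosophila melanogaster, chymotrypsin BI is a shrimp enzyme, and chymotrypsin-C is a digestive enzyme of the mammalian pancreas. Such a name gives likeness to that protein and not when or where the mosquito gene is used. Neither feeding state nor age is stated for the females in the sources used here, and the RNA came from females with no tissue named.

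Depth was alike, at 9.79 M (mega) uniquely assigned reads on 14834 listed models for molestus and 10.17 M reads on 15438 models for quinquefasciatus. Levels are RPKM, the reads of a model per kilobase of its length and per M assigned reads. On a model of 1 kb, a floor of 3 reads was 0.307 RPKM for molestus and 0.295 RPKM for quinquefasciatus. The rank of a model is its place by RPKM among the listed models of its own library, with 1 the highest. An N-fold lower level in the molestus library means that the quinquefasciatus RPKM divided by the molestus RPKM was N. Intervals are exact 95% intervals (Clopper-Pearson) of counting error only, since PCR duplicates cannot be told from separate molecules here. The assignment of each table to a taxon rests on its abbreviation, Cxm or Cxq. Reads of near-identical copies are lost from tables of uniquely assigned reads, so the division of reads among close paralogs is uncertain. Both libraries were counted on the same models, and the taxon these came from is not given in the sources used here. Reads lost where the sequence of a taxon differs from the model therefore cannot be told apart from a lower level.

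Both classes took a smaller part of the molestus library. Trypsins had 20594 reads or 0.21% (0.208 to 0.213) of the molestus library and 124526 reads or 1.22% (1.218 to 1.232) of the quinquefasciatus library, a share 5.82-fold lower (5.74 to 5.91) in molestus. Chymotrypsins had 876 reads or 0.00895% (0.00837 to 0.00956) of the molestus library and 5882 reads or 0.0579% (0.0564 to 0.0594) of the quinquefasciatus library, a share 6.46-fold lower (6.02 to 6.95). The trypsins thus outnumbered the chymotrypsins to a like degree in both, with 23.5 trypsin reads (22 to 25.2) per chymotrypsin read in molestus and 21.2 (20.6 to 21.7) in quinquefasciatus. This ratio within a library does not depend on the scaling between libraries.

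Most models of both classes were barely detected. The median trypsin had 8 reads in molestus and 20 in quinquefasciatus, and the median chymotrypsin had 4 reads in molestus and 7 in quinquefasciatus. Of the 59 trypsins, 10 had 0 reads in molestus and 7 had 0 in quinquefasciatus. Of the 37 chymotrypsins, 7 had 0 reads in molestus and 2 in quinquefasciatus. A model reached at least 10 RPKM in the molestus library for 7 trypsins and 2 chymotrypsins, and in the quinquefasciatus library for 12 trypsins and 7 chymotrypsins. The plot of all members shows a few high lines above a crowd near the floor.

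**Figure D1:**
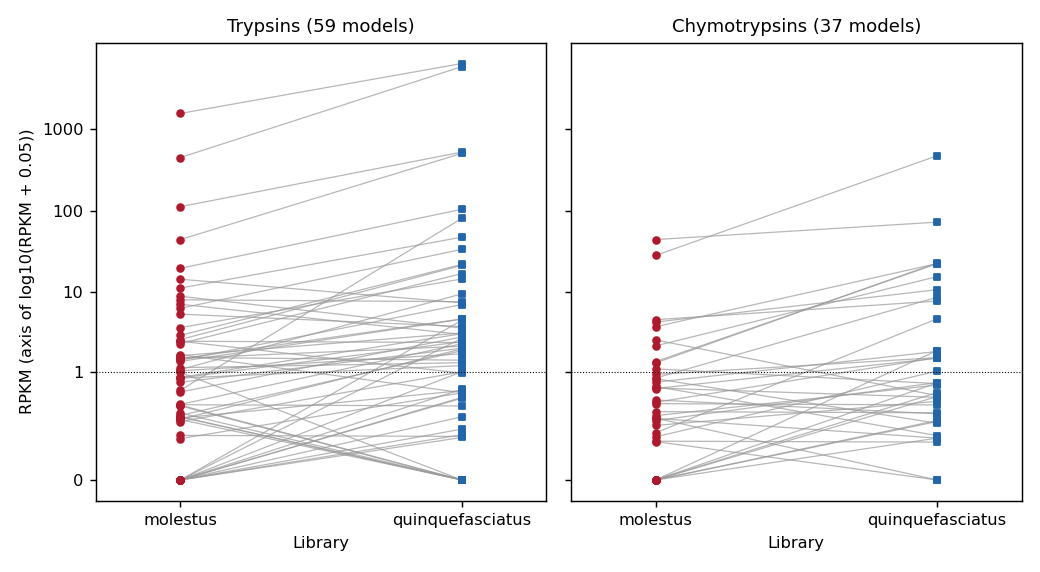
RPKM of every trypsin and chymotrypsin model in the molestus library (circles) and in the quinquefasciatus library (squares), on an axis of log10(RPKM + 0.05) with 0 reads at the bottom. Each line joins 1 model, and the dotted line marks 1 RPKM. The steepest lines above 10 RPKM all run up toward the quinquefasciatus library, while many models under 1 RPKM cross.

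For each model the molestus level was set over the quinquefasciatus level as a log2 ratio of (RPKM + 1), a scale that shrinks the ratio of low models. A model was compared if it reached 1 RPKM in either library, and was counted as higher or lower at 2-fold on that scale. Of the 59 trypsins 41 were compared, and 24 were at least 2-fold lower in the molestus library, 2 were at least 2-fold higher and 15 lay within 2-fold. Of the 37 chymotrypsins 18 were compared, with 9 lower, 1 higher and 8 within 2-fold. Over all 12789 models compared, 18.0% were at least 2-fold lower in molestus and 22.8% at least 2-fold higher, so 58.5% of the trypsins and 50% of the chymotrypsins stood against a background of 18.0%. The median log2 ratio was -1.19 for the trypsins, -1.01 for the chymotrypsins and 0.18 for all models compared. The minimum lets in models through the library in which they are high. It was met in both libraries by 26 trypsins, only in the molestus library by 2 and only in the quinquefasciatus library by 13. For chymotrypsins these numbers were 8, 2 and 8. The other 18 trypsins and 19 chymotrypsins had at most 11 reads in either library and add nothing to the counts. Over all members, the 24 of 59 trypsins and 9 of 37 chymotrypsins that were lower stood against 14.2% of all 16198 models, and the 2 trypsins and 1 chymotrypsin that were higher against 18.0%.

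With the models met in only 1 library set aside, an alternative chosen after seeing the data, 15 of 26 trypsins and 6 of 8 chymotrypsins were at least 2-fold lower in molestus, where 13.9% of all models that reached 1 RPKM in both were. The 2 trypsins and 0 chymotrypsins that were higher stood against 23.3%. At a minimum of 10 RPKM, 12 of 13 trypsins and 6 of 7 chymotrypsins were at least 2-fold lower, against 14.2% of all models at that minimum, and 0 of either class were higher, against 29.0%. Their median log2 ratios were -2.35 for trypsins and -2.39 for chymotrypsins. Of these 13 trypsins 6 met the minimum in both libraries, 6 only in quinquefasciatus and 1 only in molestus, and of the 7 chymotrypsins 2 met it in both and 5 only in quinquefasciatus. At a minimum of 100 RPKM, also chosen after seeing the data, the 5 trypsins and the 1 chymotrypsin left were at least 2-fold lower, where 16.0% of all models at that minimum were lower and 32.3% higher. Of them 3 trypsins met it in both libraries, and the other 2 and the chymotrypsin only in quinquefasciatus. Both higher minimums admit members through the library in which they are high, and the pseudocount shrinks the ratios of low models. These counts and medians therefore describe the members left, and whether the ratio changes with abundance cannot be judged from them. By counting error alone, intervals of the fold were entirely on the lower side for 26 of the 41 compared trypsins and 14 of the 18 compared chymotrypsins. They were on the higher side for 4 trypsins and 1 chymotrypsin, and included 1 for the other 11 and 3. The like share over all models was not computed, so these interval counts have no background and say nothing on the classes.

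**Figure D2:**
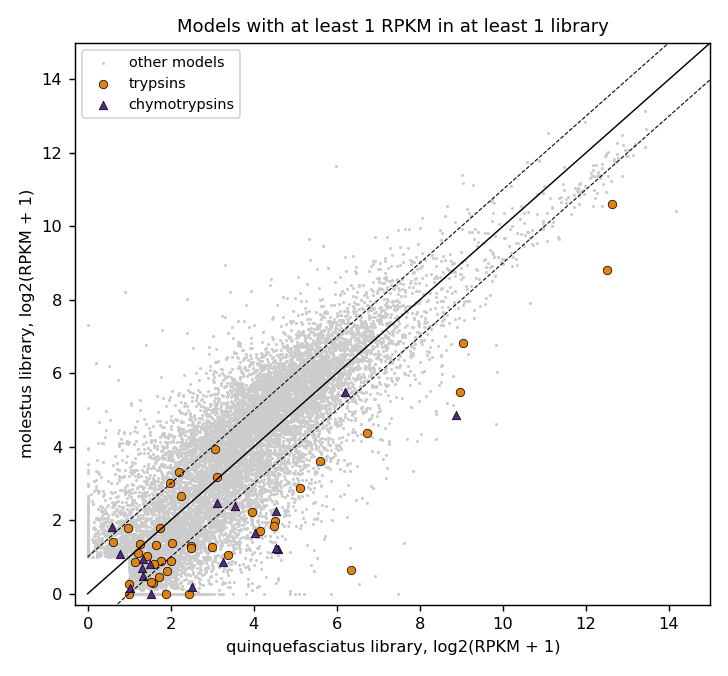
Level in the molestus library against level in the quinquefasciatus library, both as log2(RPKM + 1), for the 12789 models that reached 1 RPKM in either. The solid line marks equal levels and the dashed lines 2-fold, and 24 trypsins (circles) and 9 chymotrypsins (triangles) lie on or below the lower dashed line.

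A pair of trypsins carried nearly the whole class. Trypsin-1 CPIJ000835 had 1555 RPKM in the molestus library, at rank 86, and 6370 RPKM in the quinquefasciatus library, at rank 21, which was 4.1-fold lower (4.02 to 4.17) in molestus. Trypsin-2 CPIJ005273 had 448 RPKM in molestus, at rank 244, and 5835 RPKM in quinquefasciatus, at rank 25, which was 13-fold lower (12.6 to 13.5). Together they took 88.1% of trypsin reads in molestus and 89.7% in quinquefasciatus. They were the first and the second trypsin in both, and no other member of either class was among the 1000 most abundant models of molestus.

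The balance inside this pair differed between the libraries. CPIJ000835 had 3.47 times (3.35 to 3.6) the RPKM of CPIJ005273 in molestus and 1.09 times (1.08 to 1.1) in quinquefasciatus. As a share of all trypsin reads, CPIJ000835 took 70.1% (69.4 to 70.7) in molestus and 49.3% (49 to 49.6) in quinquefasciatus, and CPIJ005273 took 18% (17.5 to 18.6) in molestus and 40.4% (40.1 to 40.7) in quinquefasciatus. So in the molestus library 1 trypsin dominated, while in the quinquefasciatus library a pair stood at nearly equal levels. These are shares within a library and hold under any scaling between libraries.

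A second tier of trypsins was also lower in molestus. Trypsin-1 CPIJ007079 had 112 RPKM in molestus and 522 RPKM in quinquefasciatus, 4.68-fold lower (4.35 to 5.03), and its rank was 1018 in molestus and 198 in quinquefasciatus. Trypsin-7 CPIJ017414 had 44.2 RPKM in molestus and 504 RPKM in quinquefasciatus, 11.4-fold lower (10.2 to 12.7), at rank 2962 in molestus and 206 in quinquefasciatus. These 2 models were at like levels in quinquefasciatus and not in molestus. Trypsin eta CPIJ015103 had 19.6 RPKM in molestus and 104 RPKM in quinquefasciatus, 5.32-fold lower (4.52 to 6.29), at rank 5399 in molestus and 819 in quinquefasciatus. A further trypsin-1, CPIJ007080, had 11.2 RPKM in molestus and 47.3 RPKM in quinquefasciatus, 4.24-fold lower (3.41 to 5.32), at rank 6878 in molestus and 1943 in quinquefasciatus.

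**Figure D3:**
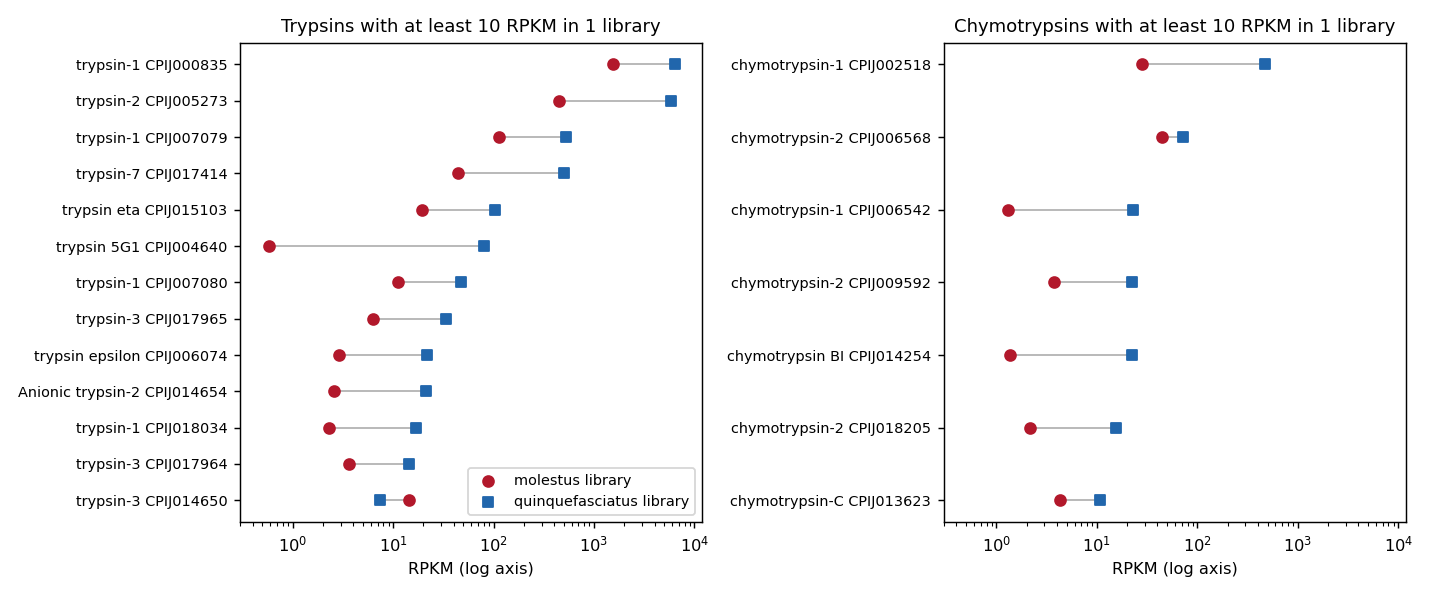
RPKM (log axis) of the 13 trypsins and 7 chymotrypsins that reached 10 RPKM in either library, in the molestus library (circles) and the quinquefasciatus library (squares). In 19 of the 20 models the molestus circle lies to the left, and trypsin-3 CPIJ014650 is the exception.

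Trypsin 5G1 CPIJ004640 had the lowest log2 ratio of all compared members, at -5.69. It had 6 reads or 0.579 RPKM in molestus and 866 reads or 80.5 RPKM in quinquefasciatus, 139-fold lower (63.6 to 380) in molestus. It was the sixth trypsin by RPKM in quinquefasciatus, at rank 1069, and stood at place 34 among the trypsins in molestus, at rank 12346. Its reads covered 17% of its 1058 bases in molestus and 88.4% in quinquefasciatus. In molestus, 6 reads covered 26.1% of the 732 bases of trypsin-3 CPIJ019428. On the 831 bases of CPIJ012152 (trypsin, alkaline C), 6 reads covered 56.7%. Why the 6 reads of CPIJ004640 lay on so small a part was not tested. The other models of the name trypsin 5G1 did not share its large difference. Trypsin 5G1 CPIJ001056 had 8.87 RPKM in molestus and 3.59 RPKM in quinquefasciatus, 2.47-fold higher (1.76 to 3.51) in molestus, and CPIJ013187 had 2 reads in molestus and 5 in quinquefasciatus.

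The remaining trypsins with at least 10 RPKM lay between ranks 2795 and 5511 in the quinquefasciatus library, apart from CPIJ014650. Trypsin-3 CPIJ017965 had 6.31 RPKM in molestus and 33.5 RPKM in quinquefasciatus, 5.32-fold lower (3.9 to 7.39), and trypsin-3 CPIJ017964 had 3.64 RPKM in molestus and 14.5 RPKM in quinquefasciatus, 3.99-fold lower (2.62 to 6.26). Trypsin epsilon CPIJ006074 had 2.91 RPKM in molestus and 21.9 RPKM in quinquefasciatus, 7.53-fold lower (4.87 to 12.2). Trypsin-1 CPIJ018034 had 2.3 RPKM in molestus and 16.9 RPKM in quinquefasciatus, 7.36-fold lower (4.42 to 13). In all 4 the molestus level was under the naming minimum of 10 RPKM, so they were named through the quinquefasciatus library. Anionic trypsin-2 CPIJ014654 had 2.58 RPKM in molestus and 21.3 RPKM in quinquefasciatus, 8.25-fold lower (5.24 to 13.7), but its reads covered only 26% of the model in molestus and 26.2% in quinquefasciatus. Trypsin epsilon, with the same 180 reads in quinquefasciatus on a model of like length, was covered to 93.6% there. The level of CPIJ014654 therefore speaks for the covered part of that model.

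Of the 41 compared trypsins 9 had a log2 ratio above 0, and for 4 of them the whole interval was above 1. Trypsin-3 CPIJ014650 was the sole trypsin with at least 10 RPKM that was higher in molestus, at 14.4 RPKM in molestus and 7.37 RPKM in quinquefasciatus, 1.96-fold higher (1.5 to 2.57). It stood at rank 6242 in molestus and 7702 in quinquefasciatus. Trypsin-zeta CPIJ014952 had 7.08 RPKM in molestus and 2.99 RPKM in quinquefasciatus, 2.37-fold higher (1.66 to 3.43). With trypsin 5G1 CPIJ001056 it made up the 2 trypsins counted as at least 2-fold higher, and both fell short of 2-fold on the scale with the pseudocount after rescaling by the median ratio or by trimmed mean of M-values (TMM) factors. Trypsin-1 CPIJ014969 had 22 reads in molestus and 9 in quinquefasciatus, 2.54-fold higher (1.12 to 6.26) by RPKM and under 2-fold with the pseudocount. Anionic trypsin-1 CPIJ013043 had 8.03 RPKM in molestus and 7.61 RPKM in quinquefasciatus, a ratio of 1.05 (0.739 to 1.5), at rank 7599 in both libraries.

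At the other end, 2 trypsins had 0 reads in molestus and at least 20 in quinquefasciatus. Trypsin-2 CPIJ004639 had 34 quinquefasciatus reads, 10.9-fold higher there against a floor of 3 reads in the molestus library. The interval of its fold against 0 reads began at 8.4. Trypsin 3A1 CPIJ005271 had 22 quinquefasciatus reads, 7.06-fold higher there against the same floor, with an interval against 0 reads that began at 5.27. No trypsin with 0 reads in quinquefasciatus had over 9 reads in molestus, the highest being trypsin-7 CPIJ006081.

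Among chymotrypsins the leading model was not the same in both libraries. Chymotrypsin-1 CPIJ002518 had 28.2 RPKM in the molestus library, at rank 4309, and 471 RPKM in the quinquefasciatus library, at rank 212, which was 16.7-fold lower (14.6 to 19.2) in molestus. Chymotrypsin-2 CPIJ006568 had 44.2 RPKM in molestus, at rank 2958, and 72.3 RPKM in quinquefasciatus, at rank 1186, only 1.64-fold lower (1.43 to 1.87). CPIJ006568 was thus the most abundant chymotrypsin of molestus and CPIJ002518 that of quinquefasciatus. Within a library, CPIJ002518 had 0.637 times (0.537 to 0.755) the RPKM of CPIJ006568 in molestus and 6.52 times (5.98 to 7.12) in quinquefasciatus. CPIJ002518 took 26.3% (23.4 to 29.3) of chymotrypsin reads in molestus and 67.9% (66.7 to 69.1) in quinquefasciatus, and CPIJ006568 took 39.7% (36.5 to 43.1) in molestus and 10% (9.29 to 10.8) in quinquefasciatus. The order of the pair does not depend on the scaling between libraries.

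**Figure D4:**
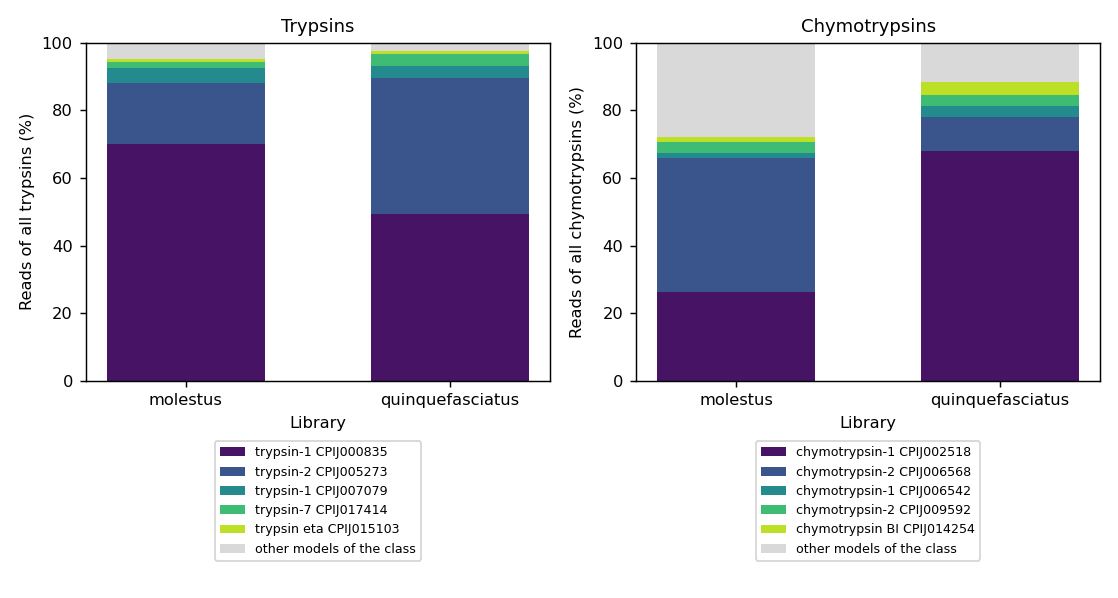
Percent of the reads of all trypsins (left) and of all chymotrypsins (right) that fell on each class's 5 models of highest RPKM, in the molestus and the quinquefasciatus library, with the other models of the class in grey. Trypsin-1 CPIJ000835 took 70.1% of the trypsin reads in molestus and 49.3% in quinquefasciatus, and chymotrypsin-1 CPIJ002518 took 26.3% of the chymotrypsin reads in molestus and 67.9% in quinquefasciatus.

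The other chymotrypsins with at least 10 RPKM reached that level only in quinquefasciatus. Chymotrypsin-1 CPIJ006542 had 1.31 RPKM in molestus and 22.8 RPKM in quinquefasciatus, 17.5-fold lower (9.57 to 35.6), and chymotrypsin BI CPIJ014254 had 1.36 RPKM in molestus and 22.3 RPKM in quinquefasciatus, 16.4-fold lower (9.61 to 30.5). These folds lay close to that of CPIJ002518, with overlapping intervals. Chymotrypsin-2 CPIJ009592 had 3.73 RPKM in molestus and 22.4 RPKM in quinquefasciatus, 6.01-fold lower (4.04 to 9.23), and chymotrypsin-2 CPIJ018205 had 2.15 RPKM in molestus and 15.5 RPKM in quinquefasciatus, 7.22-fold lower (4.27 to 13). Chymotrypsin-C CPIJ013623, the longest of them at 1775 bases, had 4.26 RPKM in molestus and 10.7 RPKM in quinquefasciatus, 2.51-fold lower (1.91 to 3.33). Their ranks ran between 3936 and 6562 in quinquefasciatus and between 8836 and 10988 in molestus.

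Of the 11 other compared chymotrypsins, 3 were at least 2-fold lower in molestus on the scale with the pseudocount. Chymotrypsin BI CPIJ002134 had 0.837 RPKM in molestus and 8.63 RPKM in quinquefasciatus, chymotrypsin-2 CPIJ011378 had 1 read in molestus and 35 reads in quinquefasciatus, a ratio of 33.7 (5.66 to 1368) of quinquefasciatus over molestus, and chymotrypsinogen 2 CPIJ000148 had 0 reads in molestus and 19 in quinquefasciatus. Chymotrypsin BI CPIJ002128 was the sole chymotrypsin at least 2-fold higher in molestus, at 20 reads in molestus and 4 in quinquefasciatus, 5.19-fold higher (1.74 to 20.9). Models of the name chymotrypsin BI therefore lay on both sides. The remaining 7 lay within 2-fold on that scale only. They were chymotrypsin-2 CPIJ007838, at 4.56 RPKM in molestus and 7.75 RPKM in quinquefasciatus, and CPIJ010497, CPIJ006543, CPIJ010496, CPIJ013625, CPIJ011901 and CPIJ015405, each with at most 12 reads in molestus and at most 28 in quinquefasciatus. By RPKM, CPIJ015405 was 8.66-fold lower (2.07 to 77) in molestus and CPIJ006543 3.85-fold lower (1.04 to 21.3). CPIJ010497 was 2.48-fold lower (0.987 to 7.01) and CPIJ013625 2.45-fold lower (1.18 to 5.46). CPIJ007838 was 1.7-fold lower (1.1 to 2.67) and CPIJ010496 1.64-fold lower (0.708 to 4), while CPIJ011901 was 1.56-fold higher (0.586 to 4.39).

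The ranks went the same way as the levels. Of the 42 trypsins listed in both libraries 29 stood nearer the top in quinquefasciatus, 12 nearer the top in molestus and 1 at the same rank. Of the 28 chymotrypsins listed in both, 18 stood nearer the top in quinquefasciatus and 10 in molestus. Of all 14074 models listed in both, 6712 stood nearer the top in quinquefasciatus and 7358 in molestus. Among the 1000 most abundant models were 2 trypsins and 0 chymotrypsins in molestus and 5 trypsins and 1 chymotrypsin in quinquefasciatus. Among the 5000 most abundant were 4 trypsins and 2 chymotrypsins in molestus and 11 trypsins and 5 chymotrypsins in quinquefasciatus. The lists of the libraries differ in length, which shifts the ranks of low models, and the median rank of the listed trypsins was 10890 in molestus and 10335 in quinquefasciatus. Across the members, Spearman's rho of RPKM between the libraries was 0.74 over the 59 trypsins and 0.60 over the 37 chymotrypsins, given as a description, since the models share both libraries and many sit at a few reads.

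**Figure D5:**
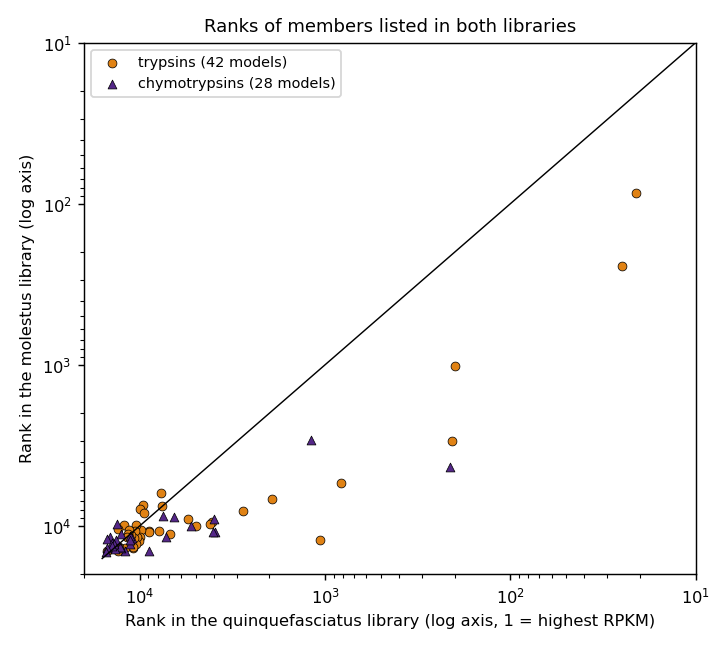
Rank of each member in the molestus library against its rank in the quinquefasciatus library, on log axes with the highest ranks at the top and at the right, for the 42 trypsins (circles) and 28 chymotrypsins (triangles) listed in both. Every member within the 5000 most abundant models of the quinquefasciatus library lies below the line of equal ranks, with trypsin-1 CPIJ000835 and trypsin-2 CPIJ005273 at the upper right.

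Members with close identifier numbers were compared, since trypsin genes of other mosquitoes lie in clusters. No gene positions were used, so closeness here is of numbers only. With gaps of at most 3, the members formed 10 runs of 3 to 5 models, 36 models in all. Within a run the levels were uneven. Trypsin-2 CPIJ005273 had 3717 reads in molestus and 50303 in quinquefasciatus, while its neighbours by number, CPIJ005271 and CPIJ005272, had 0 and 2 reads in molestus and 22 and 0 in quinquefasciatus. In the run of CPIJ007077 to CPIJ007080, trypsin-1 CPIJ007079 took 89.7% of the reads in molestus and 90.7% in quinquefasciatus and CPIJ007080 took 10% in molestus and 9.22% in quinquefasciatus, so this run kept nearly the same division in both libraries. The run of CPIJ004639 to CPIJ004641 did not. There trypsin 5G1 CPIJ004640 took 30% of 20 reads in molestus and 93.3% of 928 reads in quinquefasciatus. In the run of CPIJ015102 to CPIJ015106, trypsin eta CPIJ015103 was lower in molestus, while trypsin beta CPIJ015106 had 5.34 RPKM in molestus and 3.75 RPKM in quinquefasciatus, a ratio of 1.42 whose interval included 1 (0.902 to 2.27). CPIJ006078 and CPIJ006079, both described as trypsin-1, had the same length of 828 bases, and each had 2 reads and the same coverage in molestus and 0 reads in quinquefasciatus. Whether they are copies whose shared reads were dropped was not tested.

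Coverage of the models was high for most members with enough reads. It is bounded by the read number, with a median of 90 bases covered on models with 1 read, and is not independent of the levels. Of the trypsins with at least 100 reads, 7 of 9 in molestus and 9 of 12 in quinquefasciatus were covered over at least 90% of their length. For chymotrypsins this held for 2 of 2 in molestus and 4 of 7 in quinquefasciatus. CPIJ000835 was covered to 99.89% in both libraries. The lowest value was that of anionic trypsin-2 CPIJ014654 in quinquefasciatus, and 2 of the 92 models of like read number (150 to 210) and length (750 to 900 bases) in that library, itself included, were covered as little.

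For the other enzymes of protein digestion, too, counts are set against the 18.0% lower and 22.8% higher of all models compared and their median log2 ratio of 0.18. Serine proteases of other names include digestive enzymes and enzymes of immunity and development. Of their 147 models 89 were compared, with 33 (37.1%) at least 2-fold lower and 10 (11.2%) at least 2-fold higher in molestus and a median log2 ratio of -0.64. Their share of reads was 0.194% in molestus and 1.63% in quinquefasciatus, 8.37-fold lower (8.24 to 8.5). This share rested mostly on 1 model, which took 55.1% of the reads of the list in molestus and 89.8% in quinquefasciatus. It is therefore not set against the 5.82-fold of the trypsins. That model was SP24D CPIJ015368, at 1362 RPKM in molestus, rank 97, and 18580 RPKM in quinquefasciatus, rank 1. It was 13.6-fold lower (13.4 to 13.9) in molestus. Its interval overlapped that of trypsin-2 CPIJ005273. The next, a protease of the name easter, CPIJ006867, had 17.5 RPKM in molestus and 206 RPKM in quinquefasciatus. Carboxypeptidases, which take amino acids off the end of the peptides that trypsins leave, had 16 (43.2%) lower and 5 (13.5%) higher of 37 compared and a median of -0.68. Aminopeptidases, which work from the other end, had 13 (44.8%) lower and 2 (6.9%) higher of 29 compared and a median of -0.47. The share of reads was 0.105% in molestus and 0.115% in quinquefasciatus for carboxypeptidases. For aminopeptidases it was 0.147% in molestus and 0.161% in quinquefasciatus. The model with most reads took 51.9% of the carboxypeptidase reads in molestus and 18.7% in quinquefasciatus. Among aminopeptidases, the model with most reads took 31.4% in molestus and 19.3% in quinquefasciatus. These shares, too, are therefore not set against that of the trypsins. Both lists hold enzymes outside the gut, such as vitellogenic carboxypeptidase CPIJ008608, a protein of egg formation, at 371 RPKM in molestus and 146 RPKM in quinquefasciatus, and puromycin-sensitive aminopeptidase CPIJ008439, at 177 RPKM in molestus and 59.8 RPKM in quinquefasciatus. The second of each list was lower in molestus, with zinc carboxypeptidase CPIJ011998 at 6.38 RPKM in molestus and 116 RPKM in quinquefasciatus and aminopeptidase N CPIJ011548 at 42.4 RPKM in molestus and 110 RPKM in quinquefasciatus.

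Lists of tissue markers also differed between the libraries, and not all in the same direction. The midgut list shares aminopeptidase N and carboxypeptidases with the lists above. By name, 82 models were taken as midgut markers (maltases, amylases, aminopeptidase N, peritrophins and carboxypeptidases A and B). The marker lists, too, were chosen with earlier results of these data known. That these models are used in the midgut alone was not tested. Of them 53 were compared, with 33 (62.3%) lower and 4 (7.55%) higher in molestus and a median of -1.36. Of all models compared 18.0% were lower and 22.8% higher. The listed models held 0.0633% of the molestus and 0.268% of the quinquefasciatus reads, and 12 of them had 0 reads in molestus and 9 in quinquefasciatus. The most abundant, maltase 1 CPIJ019693, had 17.5 RPKM in molestus and 334 RPKM in quinquefasciatus. With alpha-amylase CPIJ016362 it held 35.1% of the quinquefasciatus reads of the list. Per read of these markers there were 3.32 trypsin reads (3.23 to 3.42) in molestus and 4.56 (4.5 to 4.62) in quinquefasciatus, and 0.141 chymotrypsin reads (0.132 to 0.152) in molestus and 0.216 (0.21 to 0.222) in quinquefasciatus. Of 40 models of the ovary and of dividing cells, 34 were compared, with 22 (64.7%) higher and 4 (11.8%) lower in molestus, and their share was 1.34% in molestus and 0.287% in quinquefasciatus. Of 20 muscle models 19 were compared, with 11 (57.9%) lower and 2 (10.5%) higher in molestus, and their share was 0.225% in molestus and 0.45% in quinquefasciatus. The part of these tissue differences in the results on trypsins and chymotrypsins was not tested, and in RNA of pooled females fewer gut cells and less of these transcripts per gut cell cannot be told apart.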

How the data were processed

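Per the labels' protocols, total RNA of 30 females per taxon was extracted with TRIzol and pooled, and polyadenylated RNA was made into non-directional Illumina libraries, so strand is unknown. The authors deposited, per the file headers, the count of uniquely assigned reads per transcript model, RPKM and the percent of the model length covered. Which aligner, counting tool and gene models were used is not given in the sources used here. Unlisted models were taken as 0 reads. Deposited RPKM matched values recomputed from count, length and library total.

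Tables were joined on the model identifier. Folds of RPKM have intervals from the conditional binomial distribution of both counts. With 1 library per taxon, no count test was run. The models named were every member with at least 10 RPKM in 1 library, at least 2-fold higher in molestus or at 0 reads in 1 library with at least 20 in the other, every chymotrypsin with at least 1 RPKM in 1 library, the 2 most extreme members per class and direction with at least 50 reads, and the 2 most abundant models per list of other proteases. Members named outside this rule were chosen after their values were seen. The members and lists were chosen with earlier results of these data known. The member identifiers matched 0 entries of the reference gene table, so no position or sequence is given. Alternatives were other pseudocounts, minimums, thresholds, scalings (TMM with edgeR 4.0.16 in R 4.3.3), a floor of 3 reads and inhibitors kept in. Python 3.11.15 was used with scipy 1.17.1, matplotlib 3.10.9, numpy 2.4.6 and pandas 2.3.3. The procedure was tested on simulated data with counting error only, and changes were set only in models of at least 50 expected reads and 10 RPKM. Most members lie below this, so recovery of their changes was not tested.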

Additional observations from a re-analysis of the deposited data

How the results depend on the processing

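No paired analysis was possible because each taxon had 1 library, and for the same reason no replicate could be left out. The fold of every one of the 23 models with at least 10 RPKM, or at least 2-fold higher in molestus, kept its direction under rescaling by the median ratio (a shift of -0.30 in log2) and by TMM factors (-0.21). Each rescaling lowers the molestus level of all models alike. The smallest fold higher in molestus among them was 1.96 (CPIJ014650), too large for either shift to reverse. The outcome was therefore fixed by the choice of models. The numbers of trypsins at least 2-fold lower in molestus, 24 in the main comparison, were 11 at a pseudocount of 10, 12 at a minimum of 10 RPKM, 12 at a 4-fold threshold, 15 with at least 1 RPKM in both libraries and 5 at a minimum of 100 RPKM, and between 23 and 27 under the other alternatives. The 2 trypsins higher in molestus became 4 at a pseudocount of 0.1 and 0 at a pseudocount of 10, at minimums of 10 and 100 RPKM, under both rescalings and at 4-fold. The 9 lower chymotrypsins became 13 at a pseudocount of 0.1, 5 at a pseudocount of 10, 6 at a minimum of 10 RPKM and with at least 1 RPKM in both libraries, 7 at 4-fold and 1 at a minimum of 100 RPKM, and were 9 or 10 under the others. The 1 higher chymotrypsin became 2 with inhibitors kept in and 0 at a pseudocount of 10, at both minimums, at 4-fold and with 1 RPKM in both libraries. Fewer models enter at a higher minimum, and a larger pseudocount pulls low models toward a ratio of 1. The share over all models was not computed for the other pseudocounts, the 4-fold threshold, the rescalings or the floor. The counts under these settings therefore have no background beside them. The median log2 ratio of trypsins, -1.19, was -1.97 and -0.25 at pseudocounts of 0.1 and 10, -0.55 without a filter and -2.35 at minimums of 10 and of 100 RPKM. That of chymotrypsins, -1.01, was -2.04 and -0.41 at these pseudocounts, -0.51 without a filter, -2.39 and -4.02 at these minimums and -2.35 with 1 RPKM in both libraries. None of these medians changed sign. The share of trypsins in molestus was 0.292% of summed RPKM, 0.063% of reads without its most abundant member and 0.216% with inhibitors kept in, and in quinquefasciatus it was 1.53% of summed RPKM and 0.621% without that member. The share of chymotrypsins in molestus was 0.013%, 0.00539% and 0.0126% under these 3 alternatives, and in quinquefasciatus 0.0754%, 0.0186% and 0.0608%.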

Other observations

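Proteins of families that block such enzymes were as often lower as higher in molestus. Of 32 models of serpins and other protease inhibitors 23 were compared, with 4 at least 2-fold lower and 4 at least 2-fold higher in molestus, which is 17.4% each way against 18.0% lower and 22.8% higher over all models compared, and their median log2 ratio was 0.08 against 0.18. The abundant serpin B3 CPIJ011775, of a family that traps serine proteases, had 218 RPKM in molestus and 75.1 RPKM in quinquefasciatus. Serpin B4 CPIJ016697 had 83.3 RPKM in molestus and 52.2 RPKM in quinquefasciatus.

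The 5 models left out of the trypsins and chymotrypsins as inhibitors by name went both ways. They are named here after their values were seen. Antitrypsin CPIJ012016 had 36.1 RPKM in molestus and 21.2 RPKM in quinquefasciatus, 1.7-fold higher (1.47 to 1.97) in molestus. Antichymotrypsin-2 CPIJ016298 was 3.89-fold higher (2.81 to 5.49) in molestus, at 13.2 RPKM in molestus and 3.4 RPKM in quinquefasciatus, while antichymotrypsin-2 CPIJ007026 was 3.93-fold lower (2.06 to 8.12), at 0.993 RPKM in molestus and 3.9 RPKM in quinquefasciatus. Antichymotrypsin-2 CPIJ016300 had 13 RPKM in molestus and 14.3 RPKM in quinquefasciatus, with an interval of the ratio that included 1 (0.732 to 1.12). Alpha-1-antichymotrypsin CPIJ007025 had 1 read in molestus and 7 in quinquefasciatus.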
